A study of Homo sapiens with 4 samples.

Results

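The genes described here encode 6 families of splicing factors, measured by RNA-Seq in HT-29 colorectal cancer (CRC) cells with and without silencing of APC. The members are the genes listed in the authors' table of the APC comparison whose symbol begins HNRNP, SRSF, SF3A or SF3B, SNRP, PRPF or LSM. That rule gave 76 of the 19729 genes in the files: 25 HNRNP, 11 SRSF, 9 SF3 (SF3A and SF3B together), 11 SNRP, 10 PRPF and 10 LSM genes. The table held the 6145 genes whose mean over the 4 libraries was at least 8, so the rule used the level of a gene. The members' levels are therefore given as a description without a test. The rule has no threshold on the difference between conditions, but the families were picked with earlier results of these data known.

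HT-29 is an established CRC line, described in the labels as microsatellite stable, APC-mutant and BRAF-V600E. All cells carried a lentiviral vector with a doxycycline (DOX)-inducible short hairpin RNA, either directed against APC (APC shRNA) or non-silencing (NonS), and were used at passage 3-5 after transduction. Both conditions received 500 ng/ml DOX for 72 h, so the NonS libraries share the drug, the vector and the transduction with the APC shRNA libraries. Each condition had 2 libraries, numbered I and II, which the study calls biological duplicates, and all stem from 1 cell line.

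The deposited value of a gene is a whole number on a scale that behaves as adjusted for gene length and library depth. Values are called deposited values below, differences are APC shRNA minus NonS on the log2(value + 1) scale with the standard error (SE) from limma, and a call needs a Benjamini-Hochberg adjusted p under 0.05 over all 5376 genes with a mean of at least 10. A log2(value + 1) difference understates the change of low genes. Library totals lay between 398338 and 413595. Depth in reads is unknown. APC itself was near the bottom of the scale, with deposited values of 3 and 0 in the NonS libraries and 0 and 0 in the APC shRNA libraries, and so does not check the labels well. All 7 Wnt feedback targets were called higher, among them AXIN2, with deposited values of 16 and 22 in NonS and 124 and 178 in APC shRNA libraries. Of the colorectal epithelial markers, 11 of 11 were above 0 in at least 1 library. Their sums were 4368 and 5421 in NonS and 4752 and 4950 in APC shRNA libraries, and 1 of the 8 tested, LGALS4, was called lower. The markers too low to be tested were CDX1 (2 and 2 in NonS, 0 and 0 in APC shRNA), CDX2 (0 and 0, then 2 and 4) and CEACAM5 (10 and 11, then 3 and 3). The 7 fibroblast and the 4 endothelial markers were at 0 in every library. Of the immune markers, LYZ and CD14 were above 0 and PTPRC, CD3E and HLA-DRA were at 0, with sums of 752 and 910 in NonS and 615 and 857 in APC shRNA libraries.

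Introns are removed from pre-mRNA by the spliceosome, which is built from small nuclear ribonucleoproteins (snRNPs). The SNRP genes encode Sm ring proteins and proteins of the U1 and U2 snRNPs. Some LSM proteins, but not all members of that family, form the ring on U6 and cytoplasmic rings that act in mRNA decay. SF3A and SF3B proteins hold the U2 snRNP at the branch point, and PRPF proteins belong mostly to the U4/U6.U5 tri-snRNP and the activated spliceosome. SRSF and HNRNP proteins bind the pre-mRNA itself and often act against each other in the choice of exons. Wnt signalling, which APC restrains through degradation of β-catenin, acts through TCF/LEF factors on DNA.

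Upstream sequences are shown for PRPF6 and HNRNPAB, the 2 members called in the comparison, and for PRPF8, which stands beside PRPF6 in the tri-snRNP. PRPF8 was not called and was chosen after its values were seen. RefSeq entries on GRCh38.p14 were matched for 66 of the 76 members, with 88 promoters, and PRPF3 is named only. Each sequence runs 5′ to 3′ on the gene's strand over the 250 bases before the RefSeq start. Capitals mark the letters CCGGAA or TTCCGG, the core of many ETS-factor sites, and CTTTGA or TCAAAG, the core of TCF/LEF sites. The windows are chr20:63980882-63981131 (plus strand) for PRPF6, chr17:1684868-1685117 (minus strand) for PRPF8 and chr5:178204283-178204532 (plus strand) for HNRNPAB.
PRPF6: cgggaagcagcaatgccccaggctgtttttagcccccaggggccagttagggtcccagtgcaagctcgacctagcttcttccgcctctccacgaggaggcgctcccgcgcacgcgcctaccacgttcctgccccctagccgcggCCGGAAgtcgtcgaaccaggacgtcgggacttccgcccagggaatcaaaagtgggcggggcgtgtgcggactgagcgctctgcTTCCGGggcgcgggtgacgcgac
PRPF8: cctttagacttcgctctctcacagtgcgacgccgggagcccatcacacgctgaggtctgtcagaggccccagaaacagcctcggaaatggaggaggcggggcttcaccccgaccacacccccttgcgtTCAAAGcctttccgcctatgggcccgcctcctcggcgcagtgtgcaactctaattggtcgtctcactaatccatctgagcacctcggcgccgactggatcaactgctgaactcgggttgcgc
HNRNPAB: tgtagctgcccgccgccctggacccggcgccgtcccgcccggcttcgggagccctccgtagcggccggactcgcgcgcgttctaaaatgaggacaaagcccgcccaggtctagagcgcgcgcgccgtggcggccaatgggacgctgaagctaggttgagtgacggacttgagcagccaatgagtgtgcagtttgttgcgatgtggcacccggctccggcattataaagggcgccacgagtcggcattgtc
In the PRPF6 window the ETS letters began 106 and 23 bases before the start, and in the PRPF8 window the TCF/LEF letters began 122 bases before it. Neither motif nor the E-box letters CACGTG were found in the HNRNPAB window. Both strands were searched and none of the 3 motifs holds another. The ETS letters were in 29 of the 88 member promoters (33%) and in 14.5% of all 35116 promoters of this length. The TCF/LEF letters were in 14 (15.9%) and 11.2%, and the E-box letters in 9 (10.2%) and 6.34%. A match is a description of the letters only. Binding was not measured.

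**Figure D1:**
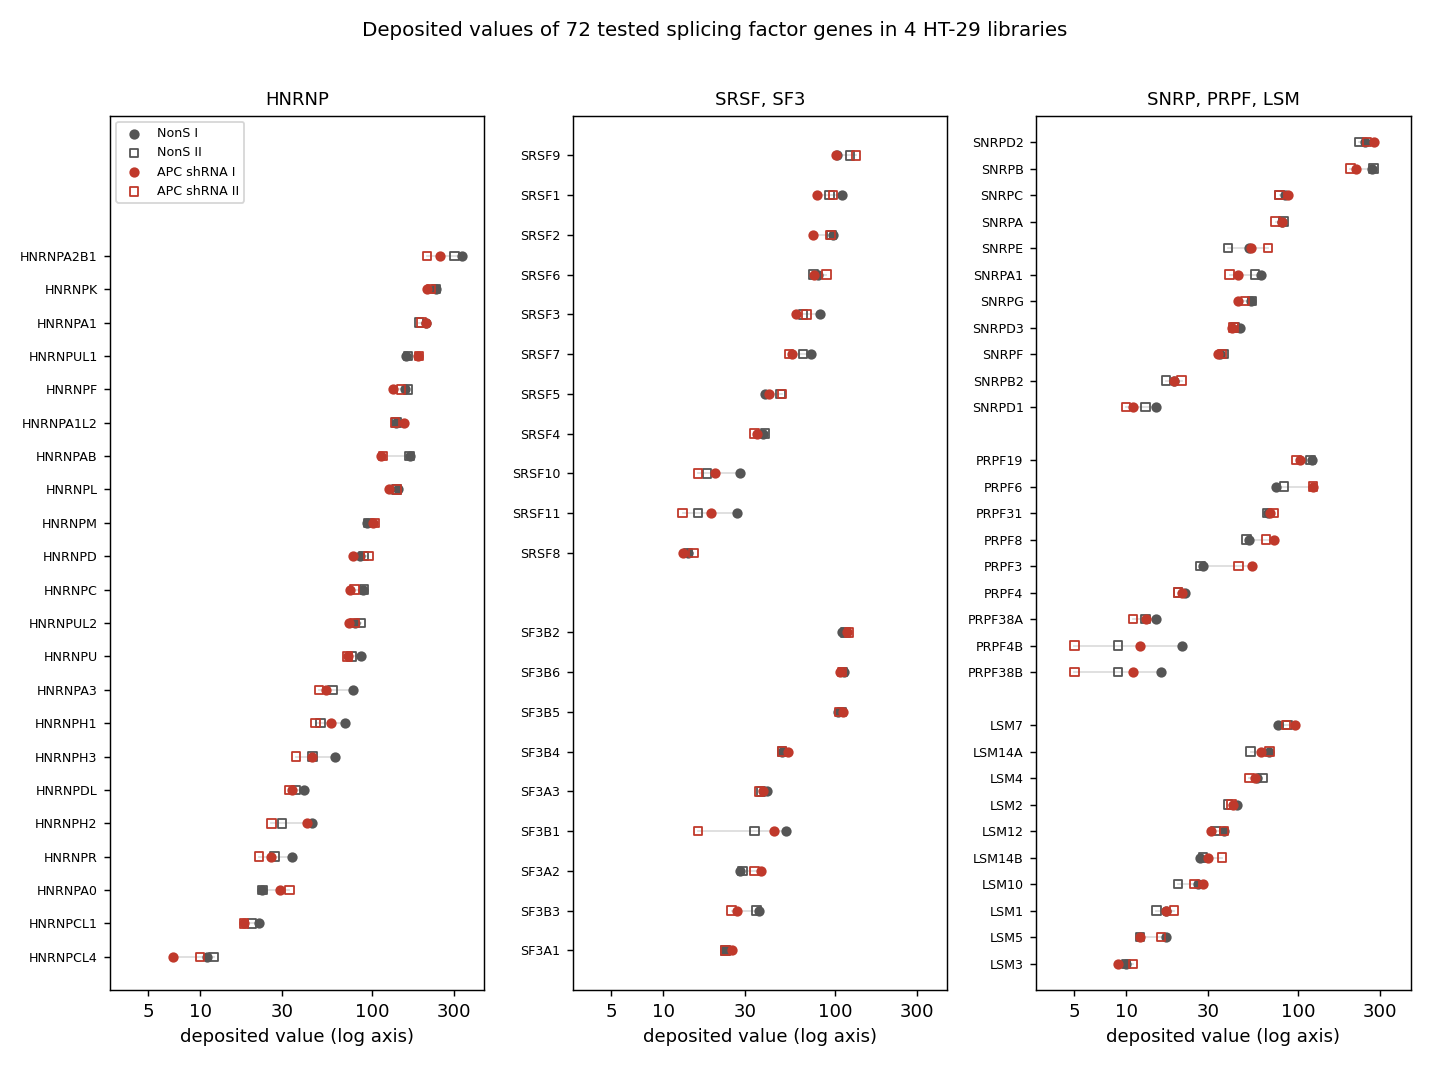
Deposited value of each of the 72 tested genes in the 4 libraries, on a log axis in units of the deposited score, with one row per gene and families grouped by panel. Filled circles are replicate I and open squares replicate II, grey for NonS and red for APC shRNA. PRPF6, PRPF8 and PRPF3 have both red points to the right of both grey points, HNRNPAB has both to the left, and in PRPF4B, PRPF38B and SF3B1 the replicates of one condition lie far apart.

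Most members were expressed well above the level that admitted them. The median of the members' mean values was 50.1, compared to 23.8 for all tested genes, and the highest mean was 273, for HNRNPA2B1. The sum over all members was 5389 and 5129 in the NonS libraries and 5016 and 4962 in the APC shRNA libraries, which was 1.353% and 1.248% of the library total in NonS and 1.213% and 1.202% in APC shRNA. Both APC shRNA sums lay below both NonS sums. By family this held for HNRNP and SNRP only. The PRPF sums (436 and 401 in NonS, 486 and 447 in APC shRNA) and the LSM sums (380 and 359, then 382 and 390) lay above. The SRSF sums (688 and 650, then 571 and 661) and the SF3 sums (554 and 543, then 560 and 518) overlapped. In bulk RNA, less RNA of a gene per cell and fewer cells that express it cannot be told apart.

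After silencing of APC, 1 of the 72 tested members was called higher (PRPF6) and 1 was called lower (HNRNPAB). Among all tested genes 4.33% were called higher and 3.7% lower. The limma fit gave 15 members an unadjusted p under 0.05, of which 6 were higher and 9 lower, against 19.8% and 15.8% of all genes in these directions. The 2 libraries per condition limit the test, as an exact permutation of 2 against 2 cannot give a p below 0.333 for a single gene. Without any one library, limma called 0 members and 0 genes in either direction, with 1119 to 1330 genes at an unadjusted p under 0.05. With the replicate number as a block, 2 members were called higher and 4 lower, against 9.73% and 9.3% of all genes. These were PRPF6 and PRPF3, and HNRNPAB, SF3B3, SNRPA1 and PRPF4B. Median-of-ratios scaling alone called 2 members higher and 1 lower, against 5.77% and 5.67% of all genes. With the block and that scaling together, 5 members were called higher and 17 lower, against 23.4% and 24.4% of all genes. The scaling factors were only 0.993 for NonS II and 1.002 for the other libraries. The prior degrees of freedom of limma were 5.80 in that fit and 1.14 with the block alone. What raised the number of calls was not tested.

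Without a test, the direction of the members can be read from the libraries. Both APC shRNA libraries were above both NonS libraries in 12 members (16.7%) and below both in 24 (33.3%), compared to 33% and 27.5% of all tested genes. In the same-numbered pairs, 14 members (19.4%) were higher in both and 35 (48.6%) lower in both, compared to 41.2% and 36.9% of all genes. The median difference of the members was -0.06, that of all genes 0.03. Most members were measured closely enough to bound their change: the 95% confidence interval of 62 members (86.1%) lay within a 2-fold change in either direction, as it did for 76.7% of all genes. The 10 members whose interval reached further were PRPF3, PRPF4B, PRPF38B, SF3B1, SNRPE, SRSF10, SRSF11, HNRNPH2, HNRNPH3 and HNRNPCL4.

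**Figure D2:**
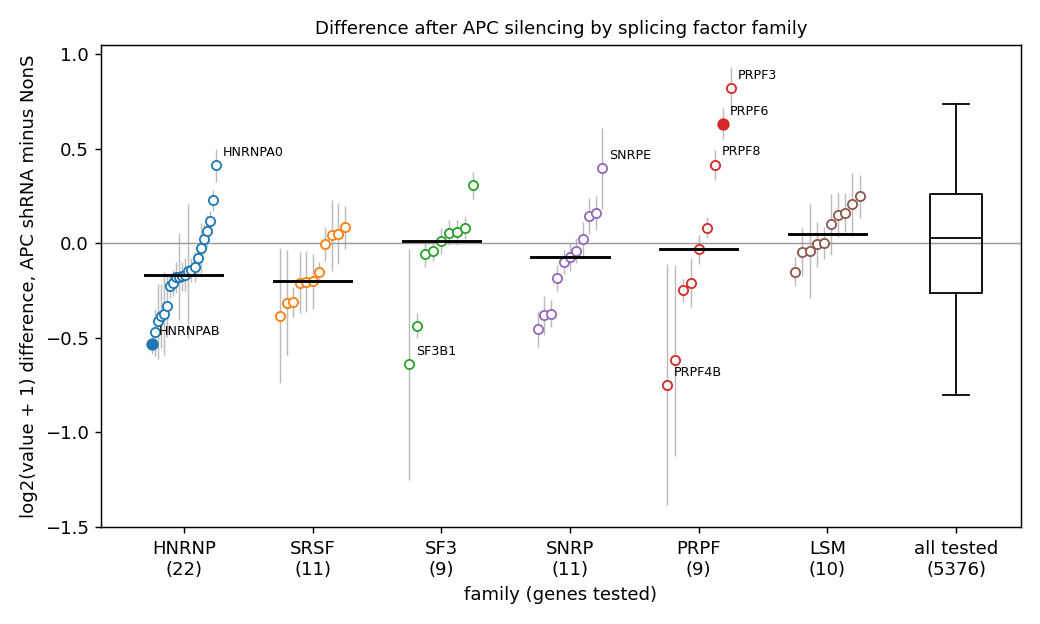
Difference in log2(value + 1), APC shRNA minus NonS, for each tested gene by family, with all tested genes at the right and the number tested under each name. Points are genes (filled where called), grey lines are ± 1 SE, black bars are family medians, and the box shows the quartiles of all tested genes with whiskers to their 5th and 95th percentiles. The medians of HNRNP (-0.17) and SRSF (-0.20) lie below 0, those of SF3 (0.01), SNRP (-0.07), PRPF (-0.03) and LSM (0.05) near it, and the PRPF genes spread furthest, from -0.75 to 0.82.

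The PRPF genes held the largest positive differences. PRPF6, which bridges the U5 and U4/U6 particles, had deposited values of 74 and 83 in NonS and 122 and 122 in APC shRNA libraries. The condition means were 78.5 ± 6.36 and 122 ± 0 (SD, n = 2), a rise of 55.4%. The log2 difference was 0.63 (SE 0.08, 95% interval 0.38 to 0.89), with a limma adjusted p of 0.0496, and 0.0496 with the replicate block. This adjusted p was close to the threshold, and the call was lost with the mean minimum at 8, with every gene and with at least 10 in every library (adjusted p up to 0.0575). The gene lies at chr20:63981135-64033100 on the plus strand (GENCODE v29, GRCh38), and none of the 50-base windows of its longest transcript occurred in another gene.

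PRPF3, a U4/U6 protein and partner of PRPF4, had deposited values of 28 and 27 in NonS and 54 and 45 in APC shRNA libraries. Both APC shRNA values were well above both NonS values. The log2 difference was 0.82 (SE 0.12, 95% interval 0.46 to 1.18), the largest among the members, with a limma adjusted p of 0.0543, and 0.0482 with the block. PRPF3 lies at chr1:150321476-150353195 (plus strand). PRPF8, the scaffold of the catalytic core in the U5 snRNP, had deposited values of 52 and 50 in NonS and 72 and 65 in APC shRNA libraries, which do not overlap. Its log2 difference of 0.42 (SE 0.08) did not pass, with a limma adjusted p of 0.0718, and 0.0528 with the block. PRPF8 lies at chr17:1650629-1684882 (minus strand). PRPF8 and SF3B3 are named here after their values were seen.

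The remaining tested PRPF genes were level or lower, apart from a small difference in PRPF31. PRPF19, the ubiquitin ligase of the complex that bears its name and the PRPF gene with the highest mean, had deposited values of 121 and 118 in NonS and 103 and 98 in APC shRNA libraries. Both APC shRNA values were lower, by a log2 difference of -0.25 (SE 0.06, limma adjusted p = 0.0977). PRPF31, which binds U4 together with SNU13, had deposited values of 67 and 66 in NonS and 69 and 72 in APC shRNA libraries, both APC shRNA values above NonS but with no call (log2 difference 0.08, limma adjusted p = 0.363). PRPF4 had values from 20 to 22. Of the 9 tested PRPF genes, 1 was called higher and 0 lower by limma, with 3 and 1 at an unadjusted p under 0.05. Over all tested genes, 4.33% and 3.7% were called, and 19.8% and 15.8% had such an unadjusted p. The family's median difference was -0.03.

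PRPF4B and PRPF38B differed more between replicates than between conditions. PRPF4B, a kinase that phosphorylates tri-snRNP proteins, had deposited values of 21 and 9 in NonS and 12 and 5 in APC shRNA libraries. Replicate II was less than replicate I in both conditions, and the values of the conditions overlap. Its log2 difference of -0.75 (SE 0.64) was the most negative of all members, with a limma adjusted p of 0.453, and 0.0468 with the block. PRPF38B, related to the B-complex protein PRPF38A, had deposited values of 16 and 9 in NonS and 11 and 5 in APC shRNA libraries (log2 difference -0.62, SE 0.51, limma adjusted p = 0.435, 0.0596 with the block).

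In lists of further spliceosome genes, 3 were called higher and 1 lower, from the tri-snRNP, helicase and exon junction lists. SART1, a tri-snRNP protein, had deposited values of 25 and 26 in NonS and 37 and 38 in APC shRNA libraries and was called higher (log2 difference 0.54, limma adjusted p = 0.0452). DDX23, a helicase of the U5 snRNP, had deposited values of 50 and 51 in NonS and 69 and 68 in APC shRNA libraries and was called higher (0.43, limma adjusted p = 0.0480). CASC3 of the exon junction complex had deposited values of 23 and 23 in NonS and 32 and 33 in APC shRNA libraries and was called higher (0.48, limma adjusted p = 0.0452). PPIH, a cyclophilin bound to the PRPF3-PRPF4 pair, went the other way, with deposited values of 28 and 29 in NonS and 21 and 20 in APC shRNA libraries (-0.46, limma adjusted p = 0.0487, and 0.0528 with the block). SNRNP200, the U5 helicase that unwinds U4 from U6, had deposited values of 95 and 96 in NonS and 141 and 127 in APC shRNA libraries. It was not called (0.48, limma adjusted p = 0.0623) and is named here after its values were seen. These genes do not stand for their lists. Median differences were 0.04 in the tri-snRNP list, 0.15 in the SNRNP list and 0.12 in the helicase list. Both APC shRNA libraries were above both NonS libraries in 3 of 9, 2 of 5 and 4 of 8 tested genes, and below in 2, 2 and 1. Over all tested genes these shares were 33% and 27.5%.

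Among the 120 further spliceosome genes, 90 were tested, 3 were called higher and 1 lower, against 4.33% and 3.7% of all tested genes. The median difference of the 90 was 0.03. With the block, 4 were called higher, with CD2BP2 of the tri-snRNP list added, and 3 lower, against 9.73% and 9.3% of all genes. The tri-snRNP list had 1 higher and 1 lower of 9 tested, the helicase list 1 higher of 8, and the exon junction list 1 higher of 6. None of the tested genes was called among 5 SNRNP, 7 U2 auxiliary, 12 PRPF19-complex and step-factor, 4 SR kinase, 11 SR-related, 20 other regulator and 8 Sm core assembly genes by limma. With the block, 1 SNRNP gene (SNRNP25) and 2 other regulators (ESRP1 and SYNCRIP) were called lower. The median difference of the further lists lay between -0.13 (SR kinases) and 0.21 (exon junction complex).

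The HNRNP genes, which encode abundant RNA-binding proteins of the nucleus, held the only member called lower. HNRNPAB had deposited values of 167 and 165 in NonS and 113 and 116 in APC shRNA libraries. The means were 166 ± 1.41 and 114.5 ± 2.12 (SD, n = 2), and the gap was many times the spread in either condition. The log2 difference was -0.53 (SE 0.05, 95% interval -0.70 to -0.36), with a limma adjusted p of 0.0452, and 0.0476 with the block. HNRNPAB lies at chr5:178204507-178211163 (plus strand), and 1.55% of the 50-base windows of its longest transcript occurred in another gene.

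HNRNPA2B1, which is known for its binding to RNA sorted in the cytoplasm as well as for splicing, was the member with the highest mean. It had deposited values of 332 and 302 in NonS and 249 and 209 in APC shRNA libraries, with both APC shRNA libraries below both NonS libraries. The log2 difference of -0.47 (SE 0.13) did not pass, with a limma adjusted p of 0.109, and 0.054 with the block. It was called in 1 of the 20 fits across all genes, the block with median-of-ratios scaling (adjusted p = 0.00475), and not with the block and GC correction (0.0976). HNRNPA0 had the most positive difference of the family, with deposited values of 23 and 23 in NonS and 29 and 33 in APC shRNA libraries (log2 difference 0.41, SE 0.09, limma adjusted p = 0.0811). The paralogue HNRNPA1, which represses many exons, did not separate the conditions, with deposited values of 205 and 188 in NonS and 205 and 194 in APC shRNA libraries.

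Of the 22 HNRNP genes tested, 12 (54.5%) had both APC shRNA libraries below both NonS libraries and 3 (13.6%) above. Over all tested genes these shares were 27.5% and 33%. The family's median difference was -0.17. By limma 0 were called higher and 1 lower, against 4.33% and 3.7% of all tested genes. At an unadjusted p under 0.05 there were 2 and 3, against 19.8% and 15.8%. The sum over the family was 2372 and 2256 in NonS and 2107 and 2077 in APC shRNA libraries. The 12 were HNRNPA2B1, HNRNPK, HNRNPF, HNRNPAB, HNRNPC, HNRNPUL2, HNRNPU, HNRNPA3, HNRNPDL, HNRNPR, HNRNPCL1 and HNRNPCL4, and the 3 were HNRNPUL1, HNRNPM and HNRNPA0. The HNRNP transcripts had a median GC content of 43.1%, compared to 51.9% over all tested genes. After a loess correction of each library for GC content the family's median difference was 0.02.

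Some HNRNP genes share sequence, so that short reads of one may be counted for another or left out. How such reads were handled is not given in the sources used here. The HNRNPC-like genes HNRNPCL1, HNRNPCL2, HNRNPCL3 and HNRNPCL4 lie on chromosome 1, and 58.7%, 53.9%, 80.2% and 94.0% of the 50-base windows of their longest transcripts occurred in another gene, mostly in each other. One such window, in the coding sequence of HNRNPCL1 at chr1:12848200-12848249 (minus strand, GRCh38), is shown because it stands in all 4 genes, as did 192 of the 1059 windows of HNRNPCL1.
HNRNPCL1 window: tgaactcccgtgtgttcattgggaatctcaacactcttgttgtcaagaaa
Deposited values of these 4 genes were low, from 18 to 22 for HNRNPCL1 and from 6 to 12 for the other three, and how reads were divided among them is uncertain. HNRNPA1L2 shared 58.5% of its windows, most of them with HNRNPA1, and its deposited values lay between 136 and 153. HNRNPUL2 shared 45.2% with the readthrough gene HNRNPUL2-BSCL2. COX20, on the opposite strand, overlaps 3502 exon bases of HNRNPU, and the strand setting was not given.

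The rule's threshold of a mean of 8 lay in a gap between members and genes left out. Just inside it were HNRNPCL3, with deposited values of 8, 10, 6 and 8 in NonS I, NonS II, APC shRNA I and APC shRNA II, HNRNPCL2 with 9, 9, 8 and 7, and HNRNPLL with 8, 6, 10 and 9. Just outside it were LSM8 with 6, 5, 5 and 6, PRPF18 with 7, 4, 7 and 4, and LSM6 with 7, 8, 3 and 3. In all, 10 genes with these symbol starts were left out, LSM6 and LSM8 of the U6 ring among them. HNRNPCL2, HNRNPCL3 and HNRNPLL had means under 10 and were not tested, and in the fit with a mean of at least 8 their adjusted p was between 0.176 and 0.331.

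In the SNRP family the Sm ring and the U1 and U2 proteins gave different values side by side. SNRPD2 of the Sm ring had the highest mean, with deposited values of 245 and 226 in NonS and 276 and 251 in APC shRNA libraries. SNRPB, another protein of the ring, had values of 268 and 275 in NonS and 218 and 201 in APC shRNA libraries. Thus the APC shRNA libraries were above NonS for SNRPD2 and below for SNRPB, and neither was called (log2 differences 0.16 and -0.37, limma adjusted p = 0.286 and 0.0718). SNRPE, another Sm protein, had the most positive difference, with values of 52 and 39 in NonS and 53 and 67 in APC shRNA libraries (0.40, SE 0.22, limma adjusted p = 0.281). Its NonS replicates differed by as much as the conditions. The Sm protein SNRPD1 had the lowest mean, with values of 15 and 13 in NonS and 11 and 10 in APC shRNA libraries (-0.38, limma adjusted p = 0.113).

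SNRPA1, the U2 protein that pairs with SNRPB2, had the most negative difference of the family, with deposited values of 61 and 56 in NonS and 45 and 40 in APC shRNA libraries. The groups do not overlap. The log2 difference was -0.45 (SE 0.10), with a limma adjusted p of 0.0820, and 0.0480 with the block. SNRPB2 itself had values of 19 and 17 in NonS and 19 and 21 in APC shRNA libraries. The U1 proteins SNRPA and SNRPC had values from 74 to 82 and from 78 to 87. By limma 0 of 11 SNRP genes were called in either direction, against 4.33% higher and 3.7% lower of all tested genes. At an unadjusted p under 0.05 there were 0 higher and 3 lower. Over all tested genes, 19.8% and 15.8% had such an unadjusted p. Both APC shRNA libraries were below both NonS libraries in 5 (45.5%) and above in 2 (18.2%), compared to 27.5% and 33% of all tested genes. The family median was -0.07.

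The SF3 family, the U2 proteins at the branch point, was mostly level between conditions. SF3B2 had the highest mean, with deposited values of 110 and 115 in NonS and 118 and 120 in APC shRNA libraries, and SF3A1 the lowest, with 23 and 23 in NonS and 25 and 23 in APC shRNA libraries. The 95% intervals of SF3B2, SF3B4, SF3B5, SF3B6, SF3A1 and SF3A3 lay between -0.28 and 0.26 on the log2 scale. SF3A2, a subunit of the SF3A complex, had the most positive difference, with 28 and 29 in NonS and 37 and 34 in APC shRNA libraries (0.31, SE 0.07, limma adjusted p = 0.0907).

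SF3B3 stood below in both APC shRNA libraries, with deposited values of 36 and 35 in NonS and 27 and 25 in APC shRNA libraries (log2 difference -0.44, SE 0.07, limma adjusted p = 0.0582, and 0.0487 with the block). SF3B1, the branch-point clamp that is mutated in blood cancers, had the most negative difference, with values of 52 and 34 in NonS and 44 and 16 in APC shRNA libraries. Its difference of -0.64 (SE 0.61, limma adjusted p = 0.497) rested on the lowest of these libraries and was 0.0633 without APC shRNA replicate II. By limma 0 of 9 SF3 genes were called in either direction, against 4.33% higher and 3.7% lower of all tested genes. At an unadjusted p under 0.05 there were 1 higher and 1 lower. Over all tested genes, 19.8% and 15.8% had such an unadjusted p. The family's median difference was 0.01.

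The SRSF genes encode SR proteins, which bind exonic enhancers and recruit the spliceosome. By limma 0 of 11 were called in either direction, against 4.33% higher and 3.7% lower of all tested genes. At an unadjusted p under 0.05 there was 1, SRSF7, against 19.8% of all tested genes higher and 15.8% lower. SRSF7 had deposited values of 72 and 65 in NonS and 56 and 54 in APC shRNA libraries (log2 difference -0.31, limma adjusted p = 0.103). SRSF9 had the highest mean, with 103 and 122 in NonS and 101 and 132 in APC shRNA libraries. Replicate II was above replicate I in both conditions, and the conditions overlap. SRSF8 had the lowest mean, with 14 and 14 in NonS and 13 and 15 in APC shRNA libraries.

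SRSF6 had the most positive difference, with deposited values of 79 and 75 in NonS and 75 and 89 in APC shRNA libraries (0.08, SE 0.11, limma adjusted p = 0.619). SRSF11 had the most negative, with 27 and 16 in NonS and 19 and 13 in APC shRNA libraries (-0.38, SE 0.36, limma adjusted p = 0.487). Both conditions overlap for each. No SRSF gene had both APC shRNA libraries above both NonS libraries, and 3 (27.3%) had both below (SRSF2, SRSF4 and SRSF7). Over all tested genes the shares were 33% above and 27.5% below. The SRSF1 value may hold reads of the annotated transcript AC015813.2, which covers 1890 bases of the same strand, or may lack reads that both share. On the opposite strand, GATC overlaps 1729 exon bases of SRSF9 and MFSD11 1106 of SRSF2. As the strand setting was not given, the values of SRSF9 and SRSF2 may be affected too. The median difference was -0.20, the transcripts' median GC content was 40.8%, and after the GC correction the median difference was 0.04.

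The LSM genes gave the narrowest range of differences of the 6 families. LSM7, a ring protein shared by the U6 and the decay ring, had the highest mean, with deposited values of 76 and 87 in NonS and 96 and 85 in APC shRNA libraries. LSM3, another shared ring protein, had the lowest, with 10 and 10 in NonS and 9 and 11 in APC shRNA libraries. LSM14B, a protein of translationally silent mRNPs, had the most positive difference, with 27 and 28 in NonS and 30 and 36 in APC shRNA libraries (0.25, SE 0.11, limma adjusted p = 0.226). LSM4 had the most negative, with 58 and 62 in NonS and 56 and 52 in APC shRNA libraries (-0.15, SE 0.07, limma adjusted p = 0.251). By limma 0 of 10 LSM genes were called in either direction, against 4.33% higher and 3.7% lower of all tested genes. At an unadjusted p under 0.05 there were also 0. Over all tested genes, 19.8% were higher and 15.8% lower at that unadjusted p. The 95% interval of all 10 lay within a 2-fold change, as it did for 76.7% of all tested genes. The sum over the family was 380 and 359 in NonS and 382 and 390 in APC shRNA libraries.

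Across all 6 families the replicates differed in a patterned way. Replicate II was below replicate I in both conditions in 27 of the 72 tested members (37.5%) and above it in both in 13 (18.1%), compared to 24% and 36% of all tested genes. Members with the widest gap included SF3B1, PRPF4B, PRPF38B and SRSF11, whose values are given above, and HNRNPH2, with deposited values of 45 and 30 in NonS and 42 and 26 in APC shRNA libraries. PRPF6 and HNRNPAB were not among the 27, whereas PRPF3, PRPF8, SF3B3, SNRPA1 and PRPF4B were. By family, 7 of the 9 tested PRPF genes were among them. Over the 72 members, the mean replicate difference and the condition difference had a Spearman correlation of 0.338 and a Pearson correlation of 0.480, and over 5364 tested genes 0.379 and 0.382. The 2 measures come from the same 4 libraries, and genes are not independent.

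**Figure D3:**
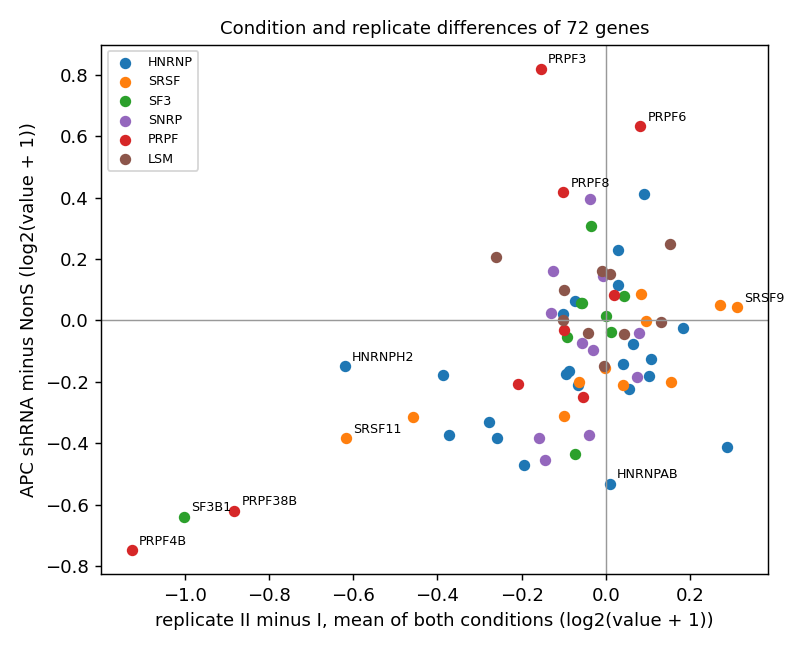
Condition difference (APC shRNA minus NonS, vertical) against replicate difference (II minus I, mean of both conditions, horizontal) of the 72 tested genes, both in log2(value + 1) and coloured by family. PRPF3 (0.82) and PRPF6 (0.63) lie high near a replicate difference of 0, whereas PRPF4B, PRPF38B and SF3B1 lie at the lower left, the first of these with a replicate difference of -1.13.

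GC content moved with the condition difference. Over the 72 members the Spearman correlation of GC content and difference was 0.401, and over 5364 tested genes it was 0.240. The members' transcripts had a median GC content of 45.1%, compared to 51.9% over all tested genes. After a loess correction for GC content the members' median difference was 0.02 in place of -0.06, that of all genes 0.01. The correction left PRPF6 at 0.53, PRPF3 at 0.86 and HNRNPAB at -0.62, whereas HNRNPA2B1 went from -0.47 to -0.24 and SNRPA1 from -0.45 to -0.24. With the block and the GC correction together, 10 members were called higher and 10 lower, against 23% and 24.1% of all genes. Whether GC content had a part in the other differences was not tested.

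**Figure D4:**
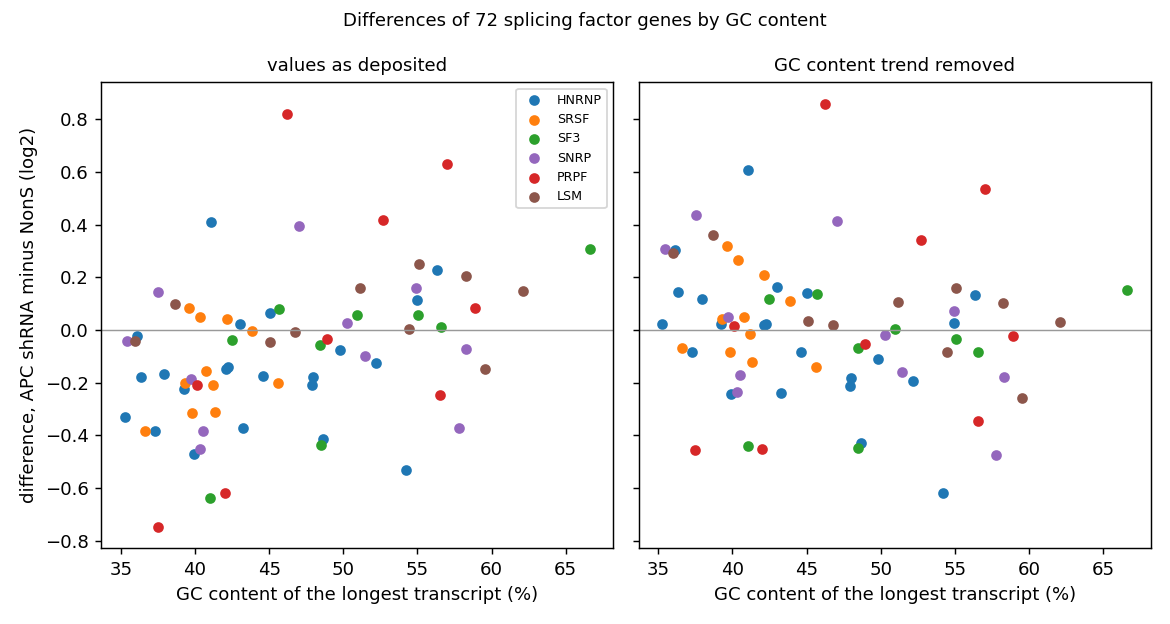
Condition difference of the 72 tested genes in log2(value + 1) against the GC content of the longest transcript in percent, as deposited (left) and after a loess correction of each library for GC content (right), coloured by family. Genes of low GC content lie lower in the left panel, where the Spearman correlation is 0.401, and the members' median moves from -0.06 to 0.02 in the right panel.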

How the data were processed

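RNA of the 4 HT-29 cultures was sequenced as 50 bp single reads from a stranded mRNA kit. The authors filtered and trimmed reads, aligned them with TopHat2, obtained gene counts from htseq-count with the GENCODE v29 annotation and compared conditions with DESeq2. The authors' processing notes name bcl2fastq 2.19.0.316, DESeq2 1.4.1 and hg19, whereas the paper names human assembly 38. The strand setting was not given in the sources used here.

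For each library the authors deposited whole numbers by gene, treated here as a score. The values are not read counts: over low genes replicates varied by 0.484 (NonS) and 0.363 (APC shRNA) times the Poisson variance, and length-weighted library sums had a coefficient of variation of 0.227%. No count model was therefore run, depth is unknown and no counting interval is given. The columns of log2 fold change, fold change and adjusted p-value that the authors deposited were not used. Of the columns with per-sample values, 0 were left out.

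Libraries were grouped by their labels. log2(value + 1) of the values as deposited was fitted with limma 3.58.1 under R 4.3.3 with a mean-variance trend. Genes whose mean reached 10 entered the fit, and p-values were adjusted over all of them after Benjamini and Hochberg. The labels number the replicates in both conditions. The replicate differences (II minus I) of NonS and APC shRNA libraries correlated at 0.724 over all tested genes and 0.65 over the members, so the numbers were taken to pair the libraries, from 2 pairs only. No source says that a number marks a shared batch. Calls with the replicate block are therefore given where they differ. GC content and length are of the longest GENCODE v29 transcript. A loess span of 0.5 was used for corrections. Alternatives were other scalings, pseudocounts, filters, moderation, corrections and leaving out each library.

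The members and lists were chosen with earlier results of these data known. Values in every library are given for called members, for the members of each family with the most positive, most negative, highest and lowest values, for those at the threshold, and for called genes of the further spliceosome lists. 1 member that was not tested is not reported here by its values.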

Additional observations from a re-analysis of the deposited data

How the results depend on the processing

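With 2 libraries per condition the calls are fragile, and rounding to whole numbers limits low genes. Without any one library 0 members and 0 genes were called in either direction, in every family, while the median difference of all members lay between -0.10 and -0.03. PRPF6 lay between 0.55 and 0.71, PRPF3 between 0.69 and 0.95 and HNRNPAB between -0.55 and -0.51 in these 4 fits. In the limma fit without block, scaling or correction, the smallest adjusted p was 0.0423, so 0 members and 0 genes were called at 0.01. Other fits went lower. With the block and median-of-ratios scaling the smallest adjusted p by limma was 3.05e-06, and PRPF6 had 0.0016 and HNRNPAB 0.00218. PRPF6 was called in 13 and HNRNPAB in 16 of the 20 fits across all genes.

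Members called higher numbered 2 in place of 1, with PRPF3 added and so 2 in PRPF, under median-of-ratios scaling (310 genes higher and 305 lower in all), upper-quartile scaling (336 higher, 349 lower), robust moderation (368 higher, 352 lower), GC correction (438 higher, 483 lower), equal library totals (343 higher, 369 lower) and length correction (395 higher, 354 lower). The last pair also called 2 members lower, with 1 in SF3. Members called higher fell to 0, in PRPF too, with a mean minimum of 8 (159 genes higher, 140 lower), with every gene (952 higher, 515 lower) and with at least 10 in every library (139 higher, 134 lower).

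The replicate block called 2 members higher (both PRPF) and 4 lower (1 each in HNRNP, SF3, SNRP and PRPF), with 523 genes higher and 500 lower. The block with median-of-ratios scaling called 5 higher (1 HNRNP, 1 SF3, 3 PRPF) and 17 lower (6 HNRNP, 3 SRSF, 2 SF3, 3 SNRP, 3 PRPF), with 1257 genes higher and 1311 lower. The block with GC correction called 10 higher (2 HNRNP, 3 SRSF, 1 SNRP, 3 PRPF, 1 LSM) and 10 lower (4 HNRNP, 1 SF3, 1 SNRP, 3 PRPF, 1 LSM), with 1233 genes higher and 1293 lower. With GC correction the median difference of all members was 0.0199 in place of -0.06, with or without the block. Family medians ranged over the fits with all libraries from -0.21 to 0.02 (HNRNP), -0.24 to 0.04 (SRSF), -0.03 to 0.01 (SF3), -0.11 to -0.02 (SNRP), -0.12 to 0.08 (PRPF) and 0.01 to 0.10 (LSM). The cause of these shifts was not tested.

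Over 13 members with values named for their call or their difference, 212 comparisons of a member with an alternative kept direction and side of the threshold, 21 passed it newly, 11 no longer passed it and 2 turned. The 2 were SF3B1 (0.0633) and SRSF6 (-0.037), both without APC shRNA replicate II. Leaving out one library gave -1.34 to 0.0633 for SF3B1 and -0.037 to 0.207 for SRSF6.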
